A study of Mus musculus with 17 samples.

Results

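The genes described here are the splicing factors and RNA-binding proteins of the table, taken by gene symbol with no use of their measured values. A gene was a member if its symbol began with Srsf, Hnrnp, Sf3a, Sf3b, Snrp, Prpf, U2af, Rbm or Lsm, with a number after Srsf, Sf3a, Sf3b, Prpf, Rbm and Lsm. The rule found 99 members among the 10207 rows that carry a gene symbol. They comprised 8 Srsf, 17 Hnrnp, 3 U2af, 9 Sf3, 11 Snrp, 12 Prpf, 10 Lsm and 29 Rbm genes. The mouse annotation (GENCODE vM21, build GRCm38) holds 120 protein-coding genes of these names, and the other 21, among them Srsf1, Srsf10, Hnrnpa3, Hnrnpd and Prpf19, were not analysed here.

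Introns are removed from pre-mRNA by the spliceosome, which is built from small nuclear ribonucleoprotein particles (snRNPs) around the splice sites. SR proteins, encoded by the Srsf genes, mostly bind exons and promote their inclusion, while many hnRNP proteins oppose them or act from introns. U2AF and SF3 proteins recognize the end of the intron and the branch point, Sm and LSm rings hold the small nuclear RNAs, PRPF proteins carry the particles through the splicing cycle, and RBM proteins are a mixed group of regulators. In myeloid cells, changes of splicing accompany the maturation of granulocytes and the activation of macrophages.

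The samples are myeloid cells that were sorted from BALB/c mice and sequenced from the 3' end of their mRNA. TAM, the macrophages of tumors, were CD11b+ Gr1- F4/80+ cells from orthotopic mammary tumors grown from 4T1-luc, a mouse carcinoma line that carries luciferase (3 libraries, label age 8 weeks). BMDM_T were CD11b+ Gr1+ F4/80low bone marrow cells of tumor-bearing mice, which the labels call monocytes (4 libraries, 8 weeks). BMDM_H were cells of the same marrow gate from healthy mice without tumor cells (4 libraries, 12 weeks), although the design text calls them age-matched. The tumor model rests on 1 injected line, tumors were digested with enzyme while marrow was flushed, and the labels do not say that libraries came from separate mice, so p-values measure only the spread between these libraries. In BMDM_T against BMDM_H the tumor and the label age cannot be told apart, and in TAM against marrow the cell type, the tissue and its preparation cannot.

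Total counts were 1748338 to 3747929 in TAM, 931278 to 1218977 in BMDM_T and 387940 to 1286844 in BMDM_H. The 6 libraries of a second batch could not be joined to gene symbols and enter no result. Levels are CPM, which put all libraries on 1 total after normalization factors, and are set against each other only within a gene. The marrow cells labelled monocytes carried neutrophil granule genes at far higher levels than TAM. The 13 measured genes of that list (such as Ngp, Camp and Ltf) summed to 170400 to 206900 CPM in BMDM_T and 138900 to 213000 CPM in BMDM_H, against 341.1 to 574.4 CPM in TAM. The 13 macrophage genes (such as C1qa, Apoe and Adgre1) summed to 67950 to 80330 CPM in TAM and 2537 to 4151 CPM in marrow. The 6 monocyte genes summed to 1220 to 1719 CPM in BMDM_T, 1904 to 3371 CPM in BMDM_H and 494.3 to 552.1 CPM in TAM. In such sorted bulk samples, fewer cells of a type and less RNA per cell cannot be told apart.

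As a group, the members took a like share of the counts in all libraries, 0.648% to 0.829%. Their summed level was 6964 to 7550 CPM in TAM, 7186 to 8098 CPM in BMDM_T and 7211 to 8048 CPM in BMDM_H, and these ranges overlap. The Rbm sum was the one that stood apart in TAM from both marrow groups, with 820.6 to 861.9 CPM against 1318 to 1396 CPM in BMDM_T and 1287 to 1434 CPM in BMDM_H. Much of that gap was 1 gene. Without Rbm38 the Rbm sum was 777.9 to 818.8 CPM in TAM, 936.3 to 1016 CPM in BMDM_T and 814.5 to 965.1 CPM in BMDM_H, and TAM and BMDM_H then overlapped. The Sf3 sum in TAM, 726.5 to 915.1 CPM, lay below BMDM_T (938.6 to 1140 CPM) and overlapped BMDM_H (862.7 to 1047 CPM). The Srsf sum was 918.6 to 1092 CPM in BMDM_H, above the 694.5 to 879.7 CPM of BMDM_T and the 767.8 to 880.6 CPM of TAM. Srsf5 alone had 406 to 601 CPM in BMDM_H, 308 to 366 CPM in BMDM_T and 294 to 382 CPM in TAM.

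**Figure D1:**
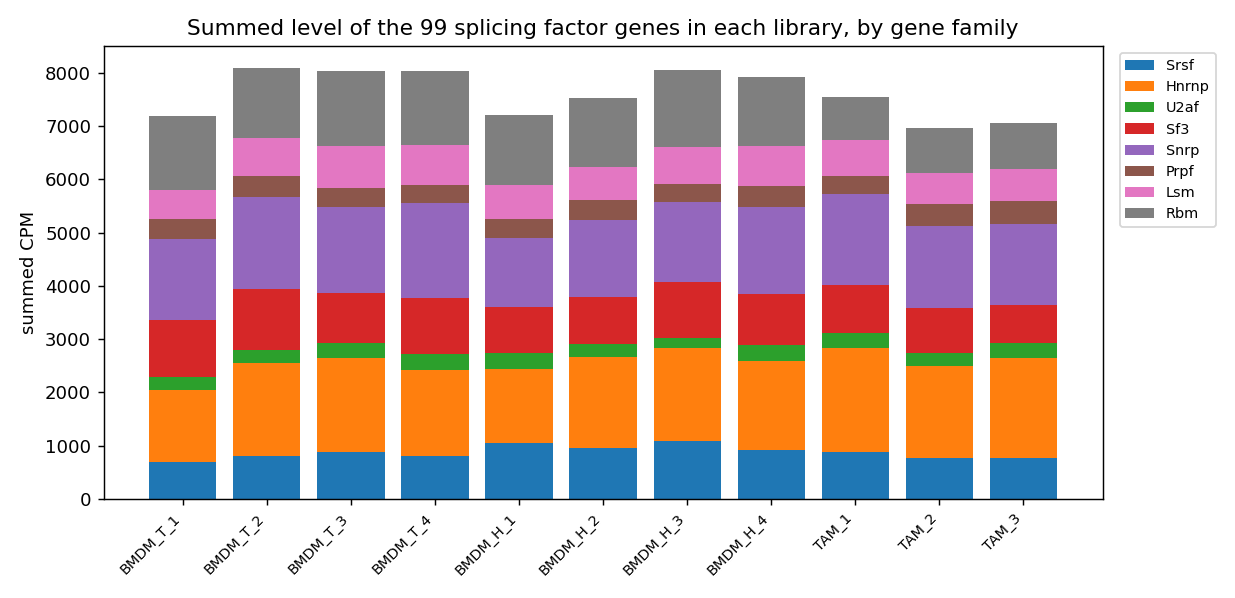
Stacked bars give the summed level in CPM (y axis) of the 99 genes in each of the 11 libraries (x axis), with 1 color per gene family. Bar heights run from 6964 to 8098 CPM, and the Rbm segment is shorter in the 3 TAM libraries (820.6 to 861.9 CPM) than in all marrow libraries.

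TAM against BMDM_T asks how expression differs between marrow cells and macrophages of the tumor in the same kind of host. Of the 83 members with enough counts for a test, 24 changed, 9 higher and 15 lower in TAM, at an adjusted p under 0.05 from edgeR's quasi-likelihood test with adjustment over all 7518 genes tested. That is 28.9% of the members tested, while 58.9% of all genes tested were called (30.1% higher and 28.7% lower). By family, the share called was 44.4% of Lsm, 40.9% of Rbm, 28.6% of Srsf and 28.6% of Prpf genes. It was 25.0% of Hnrnp, 25.0% of Sf3, 9.09% of Snrp and 0.0% of U2af genes. The members' median difference was -0.02 on the log2 scale, and that of all genes was 0.03. In size, the members' median absolute difference was 0.34 against 0.77 for all genes, and 10 members (12.0%) had an estimate beyond 2-fold against 39.8% of all genes. For 48 members (57.8%) the whole 95% interval lay within 2-fold in either direction, against 31.8% of all genes. The median level over libraries was 53.8 CPM for the members tested and 33.9 CPM for all genes tested. With scaling by total counts alone, which moved the median of all genes to 0.18 and that of the members to 0.13, the calls were 11 higher and 11 lower.

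**Figure D2:**
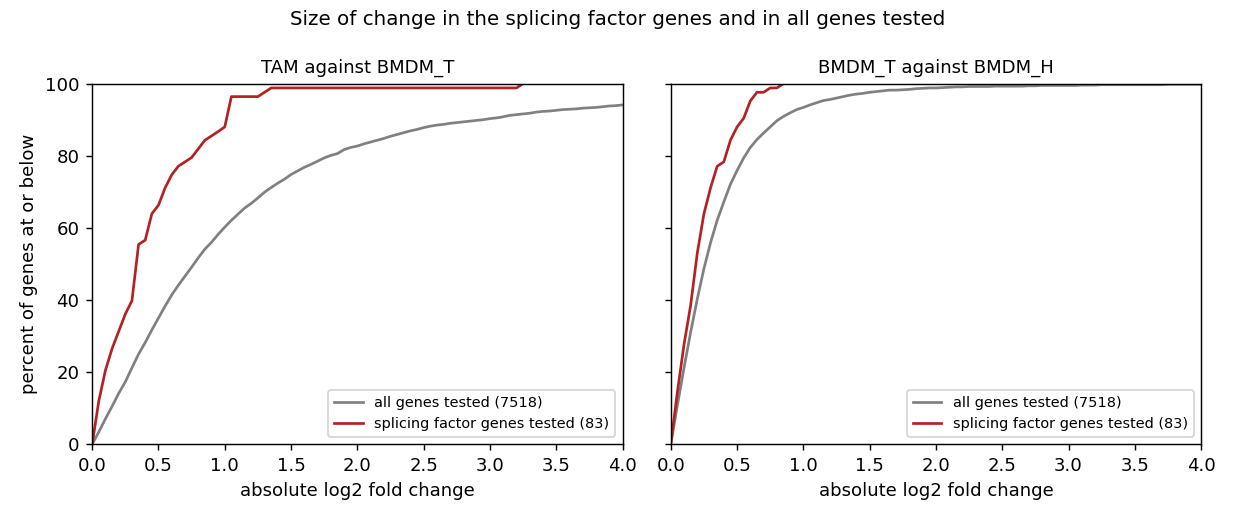
Curves give the percent of genes (y axis) whose absolute log2 fold change is at or below the value on the x axis, for the 83 splicing factor genes tested and all 7518 genes tested. In TAM against BMDM_T (left) the members reach their median at 0.34 and all genes at 0.77, and in BMDM_T against BMDM_H (right) at 0.18 and 0.26.

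The 16 members without a test were too scarce in these libraries. They included Hnrnph2, Lsm14b, Prpf4, Prpf31, Rbm15, Rbm25, Rbm28, Sf3b1 and Srsf7, and had 21 to 87 counts over all 11 libraries and at most 18.6 CPM in any library. In an edgeR fit without the filter on low counts, 2 of the 16 passed in TAM against BMDM_T (Prpf39, lower, and Prpf40b, higher) and 2 in TAM against BMDM_H (Rbm12b2, lower, and Prpf40b, higher), all named after their values were seen. Prpf40b had 6.67, 6.90 and 5.69 CPM in TAM, 1.08, 1.68, 0 and 4.51 CPM in BMDM_T and 0.796, 0.804, 1.86 and 0 CPM in BMDM_H. Its TAM libraries lay above all marrow libraries, with a log2 difference in that fit of 1.63 ± 0.60 from BMDM_T (adjusted p = 0.0241) and 2.72 ± 0.77 from BMDM_H (0.00359).

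Among the SR proteins, 1 of 7 tested members rose and 1 fell in TAM. Srsf4, a long SR protein that binds exonic enhancers (chromosome 4, 131873617 to 131901706, plus strand), had 42.8, 43.5 and 36.7 CPM in TAM, 67.8, 67.2, 78.5 and 92.9 CPM in BMDM_T and 75.6, 70.8, 65.1 and 59.9 CPM in BMDM_H. All TAM libraries lay below all marrow libraries. Srsf4 was lower in TAM than in BMDM_T by a log2 difference of -0.91 ± 0.18 (SE, adjusted p = 0.000205), and remained called in all 19 alternatives. Over its last 500 bases Srsf4 shares the locus with Gm12992 on the opposite strand, and the strand setting of the counting is not given in the sources used here. Srsf11, an SR-related protein, had 21.7, 36.1 and 84.3 CPM in TAM and 9.69, 29.4, 26.6 and 14.4 CPM in BMDM_T, with overlapping groups. Its log2 difference of 1.28 ± 0.39 (adjusted p = 0.00786) rested on TAM replicate 3, without which it was 0.51 (adjusted p = 0.23). Srsf2, Srsf3, Srsf5, Srsf6 and Srsf9 did not pass, with log2 differences from -0.34 to 0.58.

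Of 16 hnRNP genes tested, 3 rose and 1 fell. Hnrnpab, which binds AU-rich and single-stranded sequences, had 725, 586 and 727 CPM in TAM and 357, 539, 554 and 474 CPM in BMDM_T, without overlap. The log2 difference was 0.50 ± 0.18 (adjusted p = 0.0231). Hnrnpa1, the classical antagonist of SR proteins at exonic silencers, had 72.8, 93.3 and 52.5 CPM in TAM and 45.2, 50.4, 46.2 and 52.3 CPM in BMDM_T, so that the lowest TAM library lay just above the highest BMDM_T library. Its log2 difference was 0.57 ± 0.21 (adjusted p = 0.025). Hnrnpk, a binder of C-rich RNA, rose by 0.54 ± 0.21 (adjusted p = 0.0297) with overlapping groups, and Hnrnpf, a binder of G-runs, fell by 0.65 ± 0.27 (adjusted p = 0.049), also with overlap. Each of these 4 calls was lost in some fits without 1 library. For Hnrnpab these were the fits without BMDM_T replicate 1 or 4 and TAM replicate 1 or 3 (adjusted p = 0.0535 to 0.0957), and for Hnrnpa1 those without BMDM_T replicate 1 or 3 and TAM replicate 1 or 2 (0.0545 to 0.213). The Hnrnpk call was lost without BMDM_T replicate 1, 3 or 4 and TAM replicate 1 or 3 (0.0595 to 0.26). The Hnrnpf call was lost without BMDM_T replicate 2 or 3, BMDM_H replicate 2 or 3 and TAM replicate 1 or 3 (0.0522 to 0.19). Hnrnpf also failed by limma-voom (0.0552), DESeq2 (0.069) and scaling by total counts (0.14), and Hnrnpk by limma-voom (0.0508). With all libraries thinned to the lowest total, Hnrnpa1 (0.196), Hnrnpf (0.245) and Hnrnpk (0.0997) failed too. The other 12 hnRNP genes did not pass, with log2 differences from -0.90 for Hnrnpul1 to 0.41 for Hnrnpll.

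The U2AF genes, whose products bind the end of the intron, gave no call among 3 tested, by the edgeR test, DESeq2 or limma-voom, and 1 had an unadjusted p under 0.05, U2af1l4. U2af2, the subunit on the pyrimidine tract, had a log2 difference of -0.24 (95% interval -0.59 to 0.12). U2af1, the partner that reads the terminal AG, had 0.14 (-0.32 to 0.61). U2af1l4, a paralog of U2af1, had 67.2, 67.4 and 74.2 CPM in TAM and 46.3, 48.7, 55.4 and 57.7 CPM in BMDM_T, without overlap, and a log2 difference of 0.42 (adjusted p = 0.0651). It passed in edgeR with scaling by total counts alone (0.0219) and without both BMDM_H libraries of low total (0.0462). Over its last 500 bases it shares the locus with Gm49396 on the same strand.

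Of 8 SF3 genes, which form the U2 snRNP complexes at the branch point, 2 fell. Sf3b6, the small subunit that contacts the branch point adenosine (chromosome 12, 4817544 to 4827659, plus strand), had 62.8, 91.2 and 70.8 CPM in TAM, 153, 186, 107 and 86.6 CPM in BMDM_T and 102, 86.9, 76.2 and 67.7 CPM in BMDM_H. Its groups overlapped, and BMDM_T was the high group. The log2 difference from BMDM_T was -0.83 ± 0.22 (adjusted p = 0.00338), while that from BMDM_H was -0.19 (adjusted p = 0.51). Sf3b2, a subunit that helps anchor the complex to the pre-mRNA, had 254, 228 and 208 CPM in TAM, 394, 356, 287 and 349 CPM in BMDM_T and 313, 327, 396 and 357 CPM in BMDM_H. All marrow libraries of Sf3b2 lay above all TAM libraries, with a log2 difference from BMDM_T of -0.59 ± 0.16 (adjusted p = 0.00379).

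The Snrp genes encode the Sm ring and the proteins particular to U1 and U2 snRNPs. All 11 were tested, 1 rose, and the 95% interval of each lay within 2-fold. Snrpa1, the U2 snRNP protein A' (chromosome 7, 66059003 to 66074587, plus strand), had 135, 120 and 129 CPM in TAM, 81.8, 103, 93.5 and 76.7 CPM in BMDM_T and 76.4, 89.3, 93.0 and 85.9 CPM in BMDM_H. TAM lay above all marrow libraries, by a log2 difference of 0.53 ± 0.16 from BMDM_T (adjusted p = 0.00663). Snrpb, a core Sm protein, had 452, 376 and 296 CPM in TAM and 488, 426, 441 and 545 CPM in BMDM_T, and its log2 difference of -0.34 did not pass (adjusted p = 0.0899).

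Of 7 PRPF genes tested, 1 rose and 1 fell. Prpf38a, which joins the spliceosome before its activation (chromosome 4, 108563172 to 108579336, minus strand), had 72.2, 61.5 and 111 CPM in TAM, 32.3, 43.7, 41.6 and 46.0 CPM in BMDM_T and 40.6, 49.1, 57.6 and 36.4 CPM in BMDM_H. All TAM libraries lay above all marrow libraries, and the log2 difference from BMDM_T was 1.00 ± 0.22 (adjusted p = 0.000527). Prpf18, a factor of the second catalytic step, fell by 0.75 ± 0.27 on the log2 scale (adjusted p = 0.0226). That call was lost without BMDM_T replicate 1 (0.118) or TAM replicate 2 (0.0676) and with scaling by total counts (0.0668). It was also lost with all libraries thinned to the lowest total (0.156). Prpf8, the scaffold of the catalytic center, had 83.9, 112 and 116 CPM in TAM and 123, 120, 103 and 101 CPM in BMDM_T, and its difference of -0.10 had a 95% interval of -0.47 to 0.27.

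**Figure D3:**
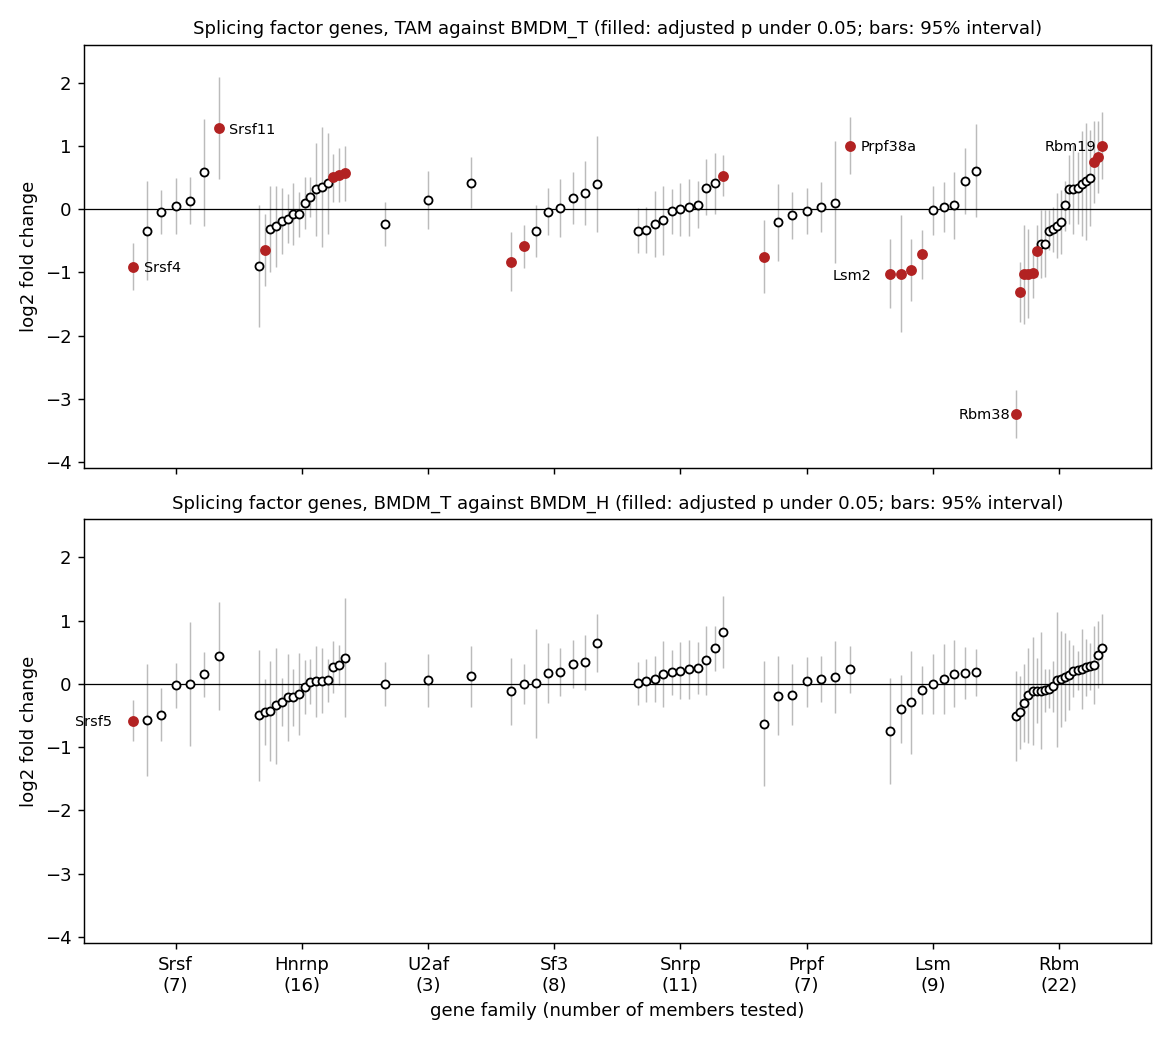
Points give the log2 fold change (y axis) of each of the 83 genes tested, ordered by value within its family (x axis), with 95% intervals as bars and filled points at an adjusted p under 0.05. In TAM against BMDM_T (top) 24 points are filled and Rbm38 lies lowest at -3.24, and in BMDM_T against BMDM_H (bottom) 1 point, Srsf5, is filled.

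Of 9 Lsm genes tested, 4 fell and 5 did not pass. That is 44.4% called, all lower, against 58.9% of all genes tested (28.7% lower). Lsm2, Lsm3 and Lsm8 encode subunits of the LSm ring that binds the end of U6 snRNA, of which Lsm8 is the nuclear one. Lsm3 (chromosome 6, 91515928 to 91522625, plus strand) had 24.4, 45.6 and 40.8 CPM in TAM, 60.3, 104, 61.2 and 62.2 CPM in BMDM_T and 78.0, 74.0, 55.8 and 80.7 CPM in BMDM_H, and differed from BMDM_T by -0.96 ± 0.24 (adjusted p = 0.00165). Lsm8 (chromosome 6, 18848579 to 18855751, plus strand) had 33.3, 32.9 and 44.5 CPM in TAM, 65.7, 70.6, 54.3 and 54.1 CPM in BMDM_T and 68.4, 61.9, 65.1 and 67.7 CPM in BMDM_H, and differed by -0.71 ± 0.18 (adjusted p = 0.00251). For both, all TAM libraries lay below all marrow libraries. The Lsm8 call was lost with all libraries thinned to the lowest total (log2 difference -0.55, adjusted p = 0.13). Lsm2 (chromosome 17, 34981862 to 34985891, plus strand) had 41.7, 26.0 and 23.0 CPM in TAM and 57.1, 40.3, 73.9 and 72.2 CPM in BMDM_T, with 1 TAM library inside the BMDM_T range and a difference of -1.03 ± 0.26 (adjusted p = 0.00217). Lsm11, part of the U7 snRNP that trims histone mRNA, passed narrowly (adjusted p = 0.0498) at 2.22 to 3.88 CPM in TAM and 4.20 to 9.24 CPM in BMDM_T, and lost the call in 11 of 17 alternatives, among them the fits without BMDM_T replicate 3 or 4 or any TAM library (0.0569 to 0.156) and that with the replicate block (0.101). Lsm4, a member of the ring on U6 snRNA, had 383, 359 and 360 CPM in TAM and 251, 358, 464 and 419 CPM in BMDM_T and did not pass (log2 difference -0.02, 95% interval -0.41 to 0.37). Lsm7, another gene of the U6 ring, did not pass either, with a log2 difference of 0.61 (adjusted p = 0.145).

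The Rbm family held the gene with the largest change, and 6 of its 22 tested members were lower and 3 higher in TAM. That is 40.9% called, against 58.9% of all genes tested. Rbm38 (chromosome 2, 173020498 to 173034734, plus strand), a p53-induced protein that binds AU-rich mRNA and regulates splicing in red cell precursors, had 42.8, 39.8 and 43.2 CPM in TAM, 398, 363, 380 and 452 CPM in BMDM_T and 392, 354, 469 and 476 CPM in BMDM_H. The marrow groups overlapped and TAM lay far below both. Rbm38 was 9.47-fold lower in TAM than in BMDM_T (log2 difference -3.24 ± 0.18, adjusted p = 7.55e-12), and the difference ran from -3.31 to -3.09 over 19 alternatives. Over its last 500 bases Rbm38 shares the locus with Gm14453 on the opposite strand. Among other members named as called, Lsm3 shares those bases with AC161456.1 on the same strand, Rbm15b with Manf on the same strand and Dcaf1 on the opposite one, and Hnrnpab, Hnrnph3 and Snrpf with Phykpl, Rufy2 and Ccdc38 on the opposite strand, so their counts are uncertain where reads could be split.

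Rbm5 and Rbm6, regulators of exon skipping whose genes lie next to each other on chromosome 9, both fell. Rbm5 (107740371 to 107770996, minus strand) had 62.2, 84.3 and 87.6 CPM in TAM, 171, 134, 170 and 159 CPM in BMDM_T and 127, 146, 154 and 85.9 CPM in BMDM_H, and was lower than in BMDM_T by -1.01 ± 0.19 (adjusted p = 0.000112). Rbm6 (107773559 to 107873237, minus strand) had 56.7, 52.0 and 34.9 CPM in TAM, 60.3, 75.6, 85.4 and 77.6 CPM in BMDM_T and 70.8, 72.4, 93.0 and 75.5 CPM in BMDM_H, with a difference of -0.66 ± 0.20 (adjusted p = 0.00697). The TAM libraries of both genes lay below all BMDM_T libraries, and 1 TAM library of Rbm5 reached the lowest BMDM_H library. The Rbm6 call was lost without TAM replicate 3 (adjusted p = 0.0541). With all libraries thinned to the lowest total it was also lost, with a log2 difference of -0.39 (adjusted p = 0.245).

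Rbm43 had 12.2, 17.5 and 22.5 CPM in TAM, 42.0, 42.9, 46.2 and 46.9 CPM in BMDM_T and 38.2, 32.2, 37.2 and 44.2 CPM in BMDM_H, and its log2 difference from BMDM_T was -1.31 ± 0.23 (adjusted p = 4.88e-05). Its TAM libraries lay below all marrow libraries. Rbm15b, of the complex that methylates adenosine in mRNA, and Rbm33 also fell, with log2 differences of -1.02 ± 0.34 (adjusted p = 0.0123) and -1.03 ± 0.37 (adjusted p = 0.0223). The Rbm15b call was lost without BMDM_T replicate 3 (adjusted p = 0.0573) or TAM replicate 3 (0.0574). The Rbm33 call was lost without BMDM_T replicate 1 (0.1) or 2 (0.0595) and without TAM replicate 1 (0.0782) or 3 (0.0882), and with scaling by total counts (0.0549).

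The rising Rbm genes have other roles. Rbm19, a factor of ribosomal RNA processing, had 29.4, 29.2 and 22.0 CPM in TAM, 14.0, 11.8, 12.7 and 14.4 CPM in BMDM_T and 9.55, 14.5, 11.2 and 7.81 CPM in BMDM_H, with a difference from BMDM_T of 1.00 ± 0.26 (adjusted p = 0.00214). Rbm7, of the nuclear exosome targeting complex, had 82.8, 72.7 and 91.8 CPM in TAM and 22.6, 62.2, 58.9 and 42.4 CPM in BMDM_T, a difference of 0.82 ± 0.27 (adjusted p = 0.0136). In BMDM_H Rbm7 had 77.2, 82.0, 48.4 and 31.2 CPM, which overlapped TAM. Rbm19 and Rbm7 had no overlap between TAM and BMDM_T, but the Rbm7 call was lost without BMDM_T replicate 1 (adjusted p = 0.0509) and without TAM replicate 3 (0.0503). With all libraries thinned to the lowest total the Rbm7 call was lost too (0.0606). Rbm8a, a core protein of the exon junction complex, rose by 0.75 ± 0.31 (adjusted p = 0.0425). That call was lost in 13 of the alternatives that tested the gene, 9 of them fits without 1 library. Its adjusted p was 0.0765 in the fit with the replicate block.

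**Figure D4:**
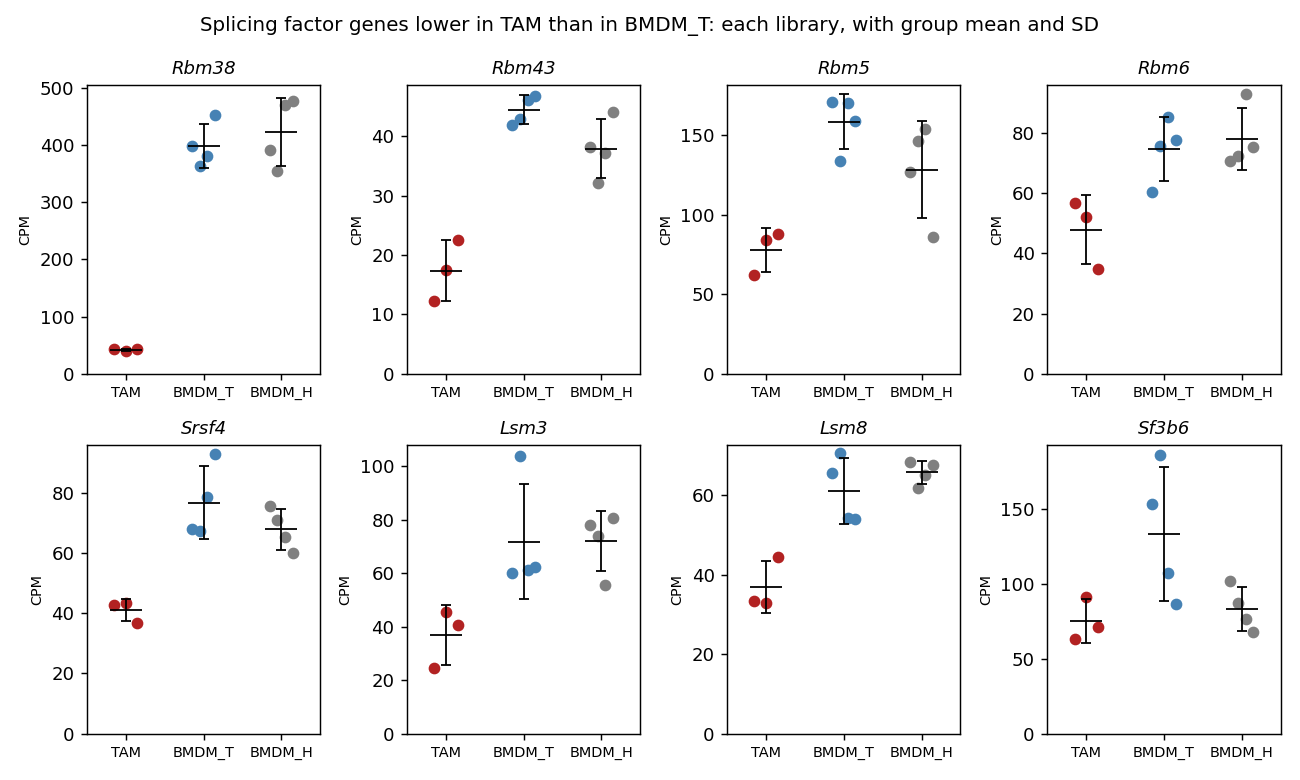
Points give the level in CPM (y axis) of 8 genes that fell in TAM, for each library by group (x axis), with the group mean and SD as bars. Rbm38 shows the widest gap, with 39.8 to 43.2 CPM in TAM and 354 to 476 CPM in marrow, and for Sf3b6 the BMDM_H libraries (67.7 to 102 CPM) lie near TAM.

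**Figure D5:**
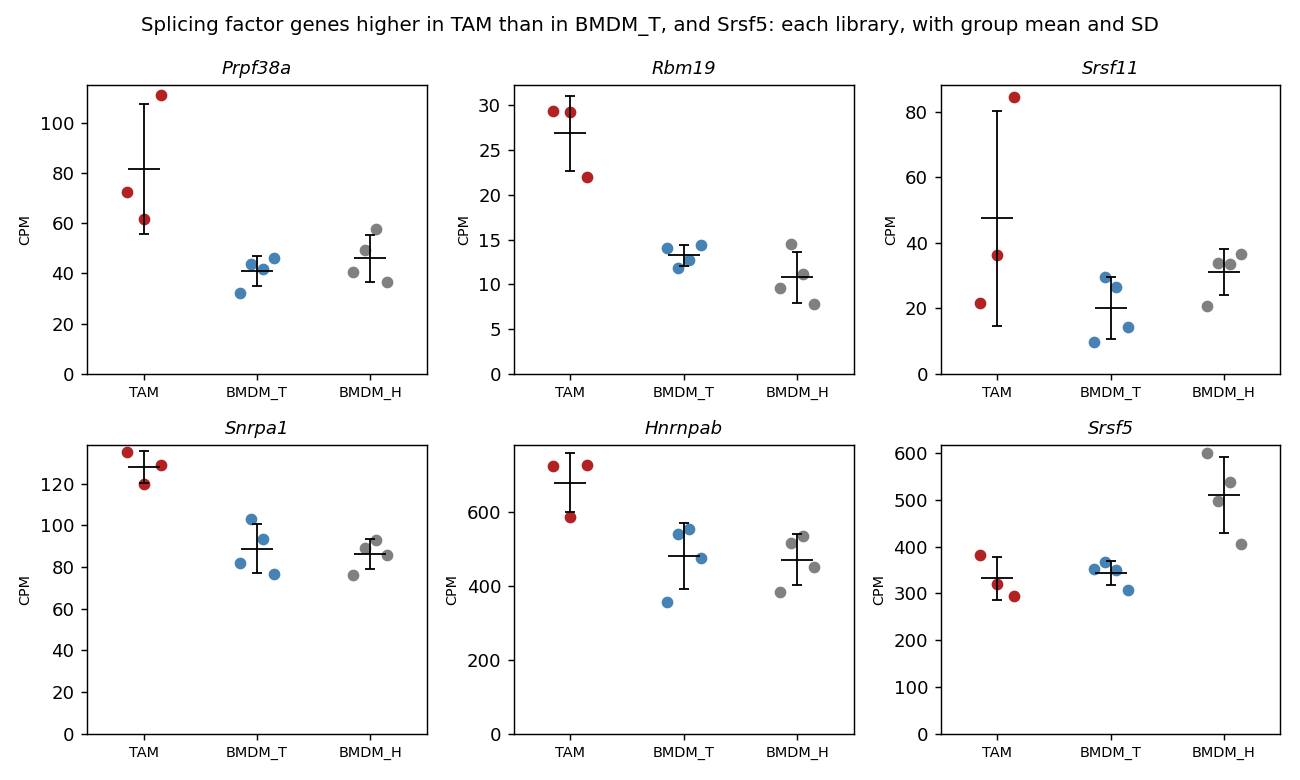
Points give the level in CPM (y axis) of 5 genes that rose in TAM and of Srsf5, for each library by group (x axis), with the group mean and SD as bars. Prpf38a, Rbm19 and Snrpa1 lie above all marrow libraries in TAM, Srsf11 rests on 1 TAM library at 84.3 CPM, and Srsf5 is high in BMDM_H alone.

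When libraries were left out, some calls were lost. Of the 24 calls, 12 were kept in each of the 11 fits without 1 library, 9 of them falls (Lsm2, Lsm3, Lsm8, Rbm38, Rbm43, Rbm5, Sf3b2, Sf3b6 and Srsf4) and 3 rises (Prpf38a, Rbm19 and Snrpa1). The count of rises went from 9 to 4 without BMDM_T replicate 1, to 5 without TAM replicate 1 and to 4 without TAM replicate 3. Other markers moved with these groups. Of 19 proliferation genes tested, 17 were lower in TAM (summed level 1070 to 1111 CPM, against 2393 to 2954 CPM in BMDM_T). That is 89.5%, while 28.7% of all genes were called lower. Of 15 genes that respond to dissociation and stress, 10 were higher and 2 lower (summed 10330 to 10990 CPM in TAM and 3514 to 6195 CPM in BMDM_T). That is 80.0% called, against 58.9% of all genes. B cell genes summed to 7.22 to 14.9 CPM in TAM and 382.1 to 648.8 CPM in BMDM_T, and mammary epithelial genes to 68.3 to 105 CPM and 12.9 to 37.0 CPM. The part of these lists, and of the neutrophil granule genes, in the members' differences was not tested.

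Promoter sequences are shown for 6 members that fell in TAM: Rbm38, as the largest change, the neighbors Rbm5 and Rbm6, and the 3 ring genes Lsm2, Lsm3 and Lsm8. Each is RefSeq's window of 300 bases in build GRCm38.p6, from 250 bases before to 50 after the annotated start, read along the gene's strand. The start is RefSeq's, while the gene spans above are GENCODE's. The windows of Rbm38 and Rbm6 lie wholly inside those spans. Capitals mark matches, on either strand, to the CCAAT box (CCAAT), the core of the NRF1 site (GCATGCGC) and an ETS core (CCGGAAG), motifs that were chosen after the sequences had been seen.
Rbm38, chr2:173021652-173021951, plus strand: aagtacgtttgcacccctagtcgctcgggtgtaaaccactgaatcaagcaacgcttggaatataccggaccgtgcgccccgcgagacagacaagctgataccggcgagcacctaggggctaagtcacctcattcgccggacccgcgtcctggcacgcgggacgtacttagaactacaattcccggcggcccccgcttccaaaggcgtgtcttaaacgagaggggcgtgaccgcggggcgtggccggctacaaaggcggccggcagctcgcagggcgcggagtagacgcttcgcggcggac
Rbm5, chr9:107770953-107771252, minus strand: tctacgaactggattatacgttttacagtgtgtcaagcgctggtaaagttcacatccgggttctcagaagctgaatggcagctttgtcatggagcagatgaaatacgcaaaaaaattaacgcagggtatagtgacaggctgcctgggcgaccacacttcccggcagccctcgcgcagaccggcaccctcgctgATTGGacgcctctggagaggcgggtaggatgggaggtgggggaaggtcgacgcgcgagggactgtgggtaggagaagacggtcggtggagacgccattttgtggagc
Rbm6, chr9:107872770-107873069, minus strand: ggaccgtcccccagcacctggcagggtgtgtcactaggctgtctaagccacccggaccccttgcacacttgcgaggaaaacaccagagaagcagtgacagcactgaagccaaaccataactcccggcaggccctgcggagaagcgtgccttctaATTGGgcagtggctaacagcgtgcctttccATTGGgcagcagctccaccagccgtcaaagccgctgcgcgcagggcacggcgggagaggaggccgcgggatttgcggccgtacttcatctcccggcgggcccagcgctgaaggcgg
Lsm2 (the first of 2 starts), chr17:34981604-34981903, plus strand: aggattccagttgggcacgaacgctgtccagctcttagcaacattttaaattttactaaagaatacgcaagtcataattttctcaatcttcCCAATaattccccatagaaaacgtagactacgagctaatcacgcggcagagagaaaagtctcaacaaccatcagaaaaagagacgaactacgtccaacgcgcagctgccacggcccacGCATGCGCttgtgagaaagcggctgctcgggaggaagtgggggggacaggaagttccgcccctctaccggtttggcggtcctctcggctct
Lsm3, chr6:91515785-91516084, plus strand: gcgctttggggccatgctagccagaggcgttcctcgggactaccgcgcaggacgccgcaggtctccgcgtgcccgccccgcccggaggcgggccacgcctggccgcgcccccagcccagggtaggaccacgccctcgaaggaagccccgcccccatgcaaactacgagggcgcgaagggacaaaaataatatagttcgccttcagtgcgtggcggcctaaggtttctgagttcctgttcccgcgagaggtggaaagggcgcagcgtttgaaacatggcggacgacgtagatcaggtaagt
Lsm8, chr6:18848385-18848684, plus strand: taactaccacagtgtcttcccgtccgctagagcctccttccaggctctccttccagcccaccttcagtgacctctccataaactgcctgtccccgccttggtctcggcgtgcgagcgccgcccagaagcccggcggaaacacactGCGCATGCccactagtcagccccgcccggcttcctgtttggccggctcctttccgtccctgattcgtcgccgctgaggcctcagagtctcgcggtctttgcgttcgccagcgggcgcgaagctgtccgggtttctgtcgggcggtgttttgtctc

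The windows of Rbm5 and Rbm6 held 1 and 2 CCAAT matches, that of Lsm2 1 CCAAT and 1 NRF1 match, and that of Lsm8 1 NRF1 match, while those of Rbm38 and Lsm3 held no match to these 3 motifs. The GC box (GGGCGG), which is not in capitals, had 3 matches in Lsm3, 3 in Lsm8 and 1 in Lsm2. Over the 84 members with a promoter in the table, 38 (45.2%) held a CCAAT match, against 41.1% of 27025 genes with windows of the same length. The NRF1 core was in 7 members (8.33%, against 3.05% of all genes) and the ETS core in 23 (27.4%, against 9.93%). The GC box was in 53 members (63.1%, against 38.2%) and the E-box (CACGTG) in 10 (11.9%, against 8.09%). A match describes these letters and is no evidence of binding.

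BMDM_T against BMDM_H compares the same marrow gate between mice with and without a tumor. Srsf5 was the 1 member that changed. Of 83 members tested by edgeR, none rose and 1 fell (1.2%), against 4.82% of all genes (2.82% higher and 2.0% lower). At an unadjusted p under 0.05 there were 4 members higher and 2 lower, DESeq2 called 1 higher and 1 lower, and limma-voom 0 higher and 1 lower. Log2 differences ran from -0.74 to 0.82 with a median of 0.05 (all genes -0.01), and for 67 members (80.7%) the 95% interval lay within 2-fold, against 63.0% of all genes. With scaling by total counts alone, the calls over all genes were 155 higher and 218 lower in place of 212 and 150, with medians of -0.12 for all genes and -0.06 for the members.

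Srsf5, an SR protein that binds exonic enhancers (chromosome 12, 80945504 to 80950507, plus strand), had 351, 366, 349 and 308 CPM in BMDM_T, 601, 497, 537 and 406 CPM in BMDM_H and 382, 320 and 294 CPM in TAM. All BMDM_H libraries lay above all others, and BMDM_T and TAM overlapped. It was 1.49-fold lower in BMDM_T than in BMDM_H (log2 difference -0.58 ± 0.16, adjusted p = 0.0363). The call was lost in 10 of 19 alternatives (adjusted p = 0.0565 to 0.117). Among them were the fits without each BMDM_T library, without BMDM_H replicate 1, 2 or 3 and without TAM replicate 2. The lowest adjusted p over all 19 was 0.0062, by DESeq2.

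Sm and U2 genes came next. Snrpf, a subunit of the Sm ring, had 156, 213, 170 and 184 CPM in BMDM_T and 105, 154, 110 and 120 CPM in BMDM_H, without overlap, and a difference of 0.56 ± 0.17 that did not pass (adjusted p = 0.0667, with 0.0446 by DESeq2 and 0.0299 without BMDM_H replicate 2). Snrpe, another ring subunit, had 77.5, 111, 60.0 and 56.8 CPM against 35.0, 44.2, 52.1 and 46.8 CPM (log2 difference 0.82 ± 0.27, adjusted p = 0.0948, with 0.031 without TAM replicate 3). Sf3b6 had a difference of 0.64 (adjusted p = 0.102), and in the fit with the replicate number as a block it was 0.66 and passed (adjusted p = 0.0266). Without BMDM_T replicate 4 Sf3b6 also passed (adjusted p = 0.0306). Rbm38 did not pass (log2 difference -0.08, adjusted p = 0.851). The red cell list summed to 59.7 to 304.5 CPM in BMDM_H and 6.31 to 21.9 CPM in BMDM_T, and B cell genes to 162.4 to 388.7 CPM and 382.1 to 648.8 CPM. Monocyte genes summed to 1904 to 3371 CPM in BMDM_H and 1220 to 1719 CPM in BMDM_T, with 4 of 6 tested lower in BMDM_T. Macrophage genes summed to 3180 to 4151 CPM and 2537 to 3123 CPM, with 4 of 13 lower and 1 higher, and 5 of 13 neutrophil granule genes were higher in BMDM_T. Of 15 dissociation and stress genes, 1 was higher and 4 lower in BMDM_T (summed 3514 to 6195 CPM, against 5069 to 6285 CPM in BMDM_H). The share called was 66.7% of monocyte, 38.5% of macrophage, 38.5% of neutrophil granule and 33.3% of stress genes, against 4.82% of all genes. The part of these lists in the Srsf5 and Snrp values was not tested.

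TAM against BMDM_H shares its TAM libraries with the first comparison and its BMDM_H libraries with the second, so it is no independent repeat. Of 83 members, 9 were higher and 17 lower (31.3%), against 56.3% of all genes (28.0% higher and 28.3% lower). With scaling by total counts alone there were 12 higher and 14 lower. The median difference was 0.11 (all genes 0.02), and the median absolute difference 0.43 (all genes 0.73). Without BMDM_H replicate 3 the count of members higher fell to 5. Rbm38 was 9.99-fold lower than in BMDM_H (log2 difference -3.32, adjusted p = 7.29e-12), beside -3.24 from BMDM_T. Srsf5 was lower by -0.63 (adjusted p = 0.00374), beside -0.05 from BMDM_T (adjusted p = 0.816).

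Lsm11, which passed narrowly against BMDM_T, had 9.55, 12.9, 9.30 and 13.0 CPM in BMDM_H, giving -1.75 ± 0.42 from BMDM_H (adjusted p = 0.0013), while BMDM_T and BMDM_H did not differ by the test (-0.74, adjusted p = 0.355). Other members passed against BMDM_H and not against BMDM_T, and the difference between the marrow groups is then the value to read. Snrpf (0.52, adjusted p = 0.0161), Snrpa (0.57, 0.0338), Hnrnpa2b1 (0.48, 0.0133), Sf3a2 (0.51, 0.0452) and U2af1l4 (0.48, 0.0453) were higher in TAM than in BMDM_H. Hnrnph3, Hnrnpul1, Rbm10 and Rbm17 were lower, with log2 differences from -1.24 to -0.43. Each of these 9 calls was lost in at least 1 fit without 1 library, while that of Lsm11 was kept in all of them. U2af1l4 lost its call in 15 of 19 alternatives, 10 of them fits without 1 library (adjusted p up to 0.352), and Sf3a2 in 13, 9 of them such fits (up to 0.188). Hnrnph3 lost it in 10, with a log2 difference of -0.32 (adjusted p = 0.335) without both BMDM_H libraries of low total. Hnrnpa2b1 lost it without TAM replicate 3 (0.0637) and without both of those BMDM_H libraries (0.117). Between BMDM_T and BMDM_H none of the 9 passed in the edgeR test, and Snrpf passed by DESeq2, as given above. Conversely, some members called against BMDM_T did not pass the edgeR test against BMDM_H. Among the rises these were Hnrnpa1 (0.36, adjusted p = 0.163), Hnrnpk (0.49, 0.0526), Rbm7 (0.37, 0.259), Rbm8a (0.24, 0.529) and Srsf11 (0.71, 0.127). Among the falls they were Hnrnpf (-0.61, 0.0723), Prpf18 (-0.65, 0.0581) and Sf3b6 (-0.19, 0.51).

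The other genes of RNA processing, which the symbol rule does not take, were counted from separate lists. In TAM against BMDM_T the share called ran from 14.3% of 3' end processing genes to 55.6% of kinases, phosphatases and carriers of SR proteins. In each of the 6 lists it lay below the 58.9% of all genes tested that were called in either direction. Of 47 other spliceosome genes, 6 were higher and 12 lower in TAM than in BMDM_T, with a median of -0.16. Isy1, a factor of the catalytic complex, rose by 1.49 on the log2 scale (adjusted p = 6.61e-07), and Dhx38, a helicase of the second step, fell by 1.24 (adjusted p = 2.83e-06). Of 24 exon junction and export genes, 1 rose (Magohb, 1.56) and 8 fell, among them the cap-binding gene Ncbp1 (-1.32, adjusted p = 5.42e-07). Of 9 kinases, phosphatases and carriers of SR proteins, 1 rose and 4 fell, among them Ppp1ca (-0.78, adjusted p = 0.000423) and Tnpo3, which carries SR proteins into the nucleus (-0.60, adjusted p = 0.00601). Of 6 genes of the SMN complex and Sm assembly, 2 rose, among them Phax (0.69, adjusted p = 0.00143), and 1 fell, Gemin7 (-0.64, adjusted p = 0.00207). Of 34 other RNA-binding regulators, 4 rose and 5 fell, with Zfp36l1, which promotes decay of AU-rich mRNA, at 1.68 (adjusted p = 2.36e-07). Of 14 genes of 3' end processing, Cpsf4 rose (0.74, adjusted p = 0.00333) and Cpsf2 fell (-0.89, adjusted p = 0.0384), a call lost without BMDM_T replicate 1 or 4 or TAM replicate 3. In BMDM_T against BMDM_H, Zfp36l1 was the 1 gene of these lists that edgeR called, higher by 1.35 (adjusted p = 0.00193). That is 2.94% of its list, against 4.82% of all genes tested.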

How the data were processed

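The members, the gene lists and the tests were chosen with earlier results of these data known. The authors deposited raw counts as 1 table with 24421 rows, and 10207 of these carry a gene symbol. The submitters' processing notes name the genome build mm10 and the tools bcl2fastq, HTSeq and STAR 2.4.2a. The annotation, the strand setting and any collapse of molecular identifiers are not given in the sources. Library sizes and CPM refer to the rows with a symbol, and 17 symbols turned into dates are not named. The 6 batch 2 libraries do not follow the symbol rows (Spearman correlations with batch 1 of -0.02 to 0.0 in 66 pairs) and were left out, which leaves 11 libraries.

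The counts as deposited were tested in R 4.3.3 with edgeR 4.0.16 (filterByExpr, TMM factors, estimateDisp, glmQLFit and glmQLFTest, 2-sided) in 1 fit over the 3 groups. Benjamini-Hochberg adjustment ran over 7518 genes, with calls at an adjusted p under 0.05. DESeq2 1.42.0, limma-voom (limma 3.58.1), total counts, no filter, thinned counts, 2 groups only, a replicate block and libraries left out were alternatives. Errors of fold changes are SE. Named members are, per comparison, the called ones without overlap of libraries whose higher group has 30 CPM or more (up to 6 per direction), and per family those with the smallest p or the highest level. Other members were named to complete a count, after their values had been seen. Some members are not reported here by name.

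Same-numbered BMDM_T and BMDM_H libraries deviated together from their group means (r across genes 0.22, 0.24, 0.13 and 0.13), above the limit of 0.1, while no label tells what the numbers stand for. For TAM and BMDM_T r was 0.02, -0.03 and 0.08. Sampling noise was exceeded between replicates in each of 15 pairs (chi-square per degree of freedom 2.67 to 14.62). On simulated data with 200 of 7518 genes changed, 53% of 2-fold and 94% of 4-fold changes were recovered for TAM against BMDM_T, 55% and 95% for BMDM_T against BMDM_H, and 59% and 98% for TAM against BMDM_H. In the real data 58.9% of genes were called in TAM against BMDM_T and 56.3% in TAM against BMDM_H. The adjusted p depends on that share, so the simulated rates do not measure recovery in the real TAM comparisons.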

Additional observations from a re-analysis of the deposited data

Results flagged for a closer look

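Lsm3 in BMDM_T replicate 2 stood apart from the other libraries of its group, at 104 CPM against 60.3 to 62.2 CPM in the other 3. Groups were checked in 52 cases, and chance flags about 1 in 20 of them. Without that library, Lsm3 was still called lower in TAM.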

How the results depend on the processing

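The members named by the naming rule, with Lsm2, Rbm19 and Srsf11, had 37 calls. Of these, 20 were kept in all 19 alternatives, and 3 more (Rbm19 against both marrow groups and Lsm11 against BMDM_H) in the 18 that tested the gene. Another 14 were lost in some, and none changed direction. Over all members called, 10 of 24 calls in TAM against BMDM_T were kept in all 19 alternatives. In BMDM_T against BMDM_H 0 of 1 were kept, and in TAM against BMDM_H 10 of 26. Thinning all libraries to the lowest total, which leaves fewer counts, lowered the calls to 2799, 233 and 2723 genes for TAM against BMDM_T, BMDM_T against BMDM_H and TAM against BMDM_H. Members called were then 4 higher and 8 lower in TAM against BMDM_T, and 11 lower in TAM against BMDM_H. That fit tested 63 members. Against BMDM_T it lost the calls of Hnrnpa1, Hnrnpf, Hnrnpk, Lsm8, Prpf18, Rbm6 and Rbm7 (adjusted p = 0.0606 to 0.245). Against BMDM_H it lost those of Hnrnph3, Hnrnpul1, Rbm10, Rbm6, Sf3a2 and Snrpa (0.0578 to 0.165). Without both low-total BMDM_H libraries, 179 genes and 0 members lower were called in BMDM_T against BMDM_H, and without the low-count filter 0 members lower, since Srsf5 lost its call. With the replicate block, which pairs same-numbered libraries, 1 member was higher in BMDM_T (Sf3b6, 0.66), and DESeq2 also called 1 (Snrpf).

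Leaving out 1 library gave 4 to 10 members higher in TAM against BMDM_T, 5 to 10 in TAM against BMDM_H, and 0 to 1 higher and 0 to 1 lower in BMDM_T against BMDM_H, where 238 (without BMDM_H replicate 2) to 409 genes were called. Depth limits the 16 members with at most 87 counts over all libraries, which the filter on low counts left out.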
